A study of Mus musculus with 8 samples.

Results

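The 33 genes described here encode chaperones, folding enzymes, degradation factors, translocon subunits and stress sensors of the endoplasmic reticulum (ER), the compartment in which secreted and membrane proteins are folded. They were listed by function, with earlier results of these data known, and all 33 symbols matched 1 row each of the 55421 gene rows by Ensembl identifier. The RNA came from macrophages grown out of mouse bone marrow and taken on day 7, with 4 libraries labelled WT and 4 labelled Baf60a KO, and the series title names C57 mice. The gene Smarcd1 encodes Baf60a, which belongs to the SWI/SNF (BAF) complexes that move nucleosomes. The 2 groups had the same cell type, treatment and day in the labels and differed in genotype alone. The labels do not say how the gene was deleted, what drove any Cre, or whether each library is a separate mouse or culture. The p-values therefore reflect only how far these libraries spread, and that spread may be technical.

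When unfolded proteins build up in the ER, the luminal chaperone BiP leaves the membrane sensors IRE1, PERK and ATF6, and the unfolded protein response begins. IRE1 (encoded by Ern1) splices the mRNA of Xbp1, PERK (Eif2ak3) slows translation, and ATF6 is cut to release a transcription factor. The XBP1 and ATF6 proteins then raise the genes for chaperones, disulfide isomerases and the machinery that exports misfolded proteins for degradation by the proteasome. Macrophages secrete large amounts of protein, and IRE1 and XBP1 are also known to act in their inflammatory signalling.

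The promoters of these genes are known for the ER stress response element (ERSE), in which CCAAT, bound by NF-Y, is followed after 9 bases by CCACG, bound by ATF6. A second form, ERSE-II, is ATTGG, 1 base and CCACG. Promoters from 250 bases before to 50 bases after the start were taken from RefSeq (GRCm38.p6, the assembly of mm10), and 27 of the 33 members matched. Exact matches on either strand to the ERSE were found in 9 of the 27 members (33.3%), against 37 of 27025 genes in the whole table (0.137%) and 39 of 32851 promoters (0.119%). ERSE-II was found in 2 of the 27 (7.41%), against 12 of 27025 genes (0.0444%) and 12 promoters in all (0.0365%). The XBP1 target sequence TGACGTGG was found in 0 of the 27, against 0.714% of genes and 0.676% of promoters. At so low a share, 0 of 27 shows no lack of it. The core CCACG, which is part of both ERSE forms and reads on the other strand within TGACGTGG, was found in 22 of the 27 (81.5%), against 35.5% of genes. A match is a description of letters and not a measured site of binding.

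Neither ERSE form was found in 16 of the 27 members with a promoter. The 12 matched elements of the other 11 are shown here. Each is printed 5′ to 3′ on the strand on which it reads from the left, with the fixed letters in capitals and GRCm38.p6 coordinates.
Hspa5, chr2:34772025-34772043: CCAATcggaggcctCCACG
Hsp90b1, chr10:86705638-86705656: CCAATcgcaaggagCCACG
Hsp90b1, chr10:86705533-86705551: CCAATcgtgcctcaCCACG
Dnajc3, chr14:118937827-118937845: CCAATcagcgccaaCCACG
Creld2, chr15:88819520-88819538: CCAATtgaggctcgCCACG
Pdia6, chr12:17266491-17266509: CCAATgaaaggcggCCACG
Calr, chr8:84847075-84847093: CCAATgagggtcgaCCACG
Canx, chr11:50325800-50325818: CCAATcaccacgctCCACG
Syvn1, chr19:6046532-6046550: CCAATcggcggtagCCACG
Derl3, chr10:75893242-75893260: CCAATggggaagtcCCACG
Dnajb11, chr16:22857852-22857862: ATTGGcCCACG
Herpud1, chr8:94386377-94386387: ATTGGgCCACG

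The ERSE matches began between 44 bases (Syvn1) and 212 bases (Hsp90b1) before the RefSeq start, and that of Hspa5 began 65 bases before it. Those of Creld2, Calr and Derl3 and 1 of the 2 of Hsp90b1 read against the direction of the gene. In the GENCODE M21 annotation 10 of the 12 elements lay upstream of their gene, whereas those of Hspa5 and Dnajb11 lay in an annotated untranslated exon. The ERSE-II match of Herpud1 also lay within the annotated antisense gene Gm15890.

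**Figure D1:**
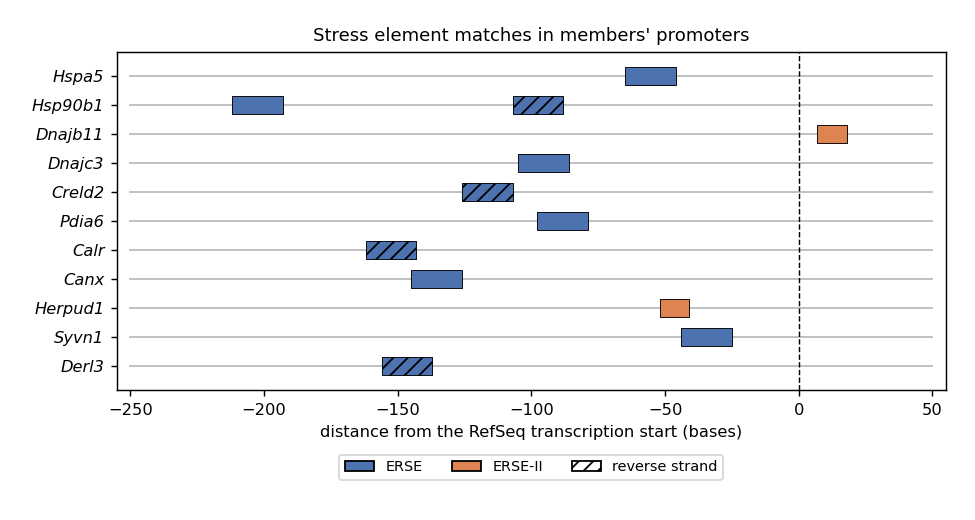
Position of each exact ERSE (blue) and ERSE-II (orange) match in the promoters of 11 members, as distance in bases from the RefSeq transcription start (dashed line); hatched boxes read against the gene. The ERSE matches lie upstream of the start, with Hsp90b1 holding 2 of them, and the Dnajb11 match lies after the start.

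All 33 members were read in TPM, a relative abundance corrected for gene length, so that levels of different genes can be compared. Summed, they made up 0.551% to 0.602% of a library's TPM. Hspa5, Calr, Hsp90b1, P4hb and Pdia3 made up between 55.6% and 57.2% of that sum. By mean level over the 8 libraries, 13 members exceeded 100 TPM, 18 lay between 10 and 100, Eif2ak3 lay below 10 and Derl3 below 1. Derl3, a paralog of the other Derlins, ranged from 0.11 to 0.27 TPM over the WT libraries and from 0.07 to 0.40 TPM over the KO libraries, and was the 1 member too low to be tested.

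**Figure D2:**
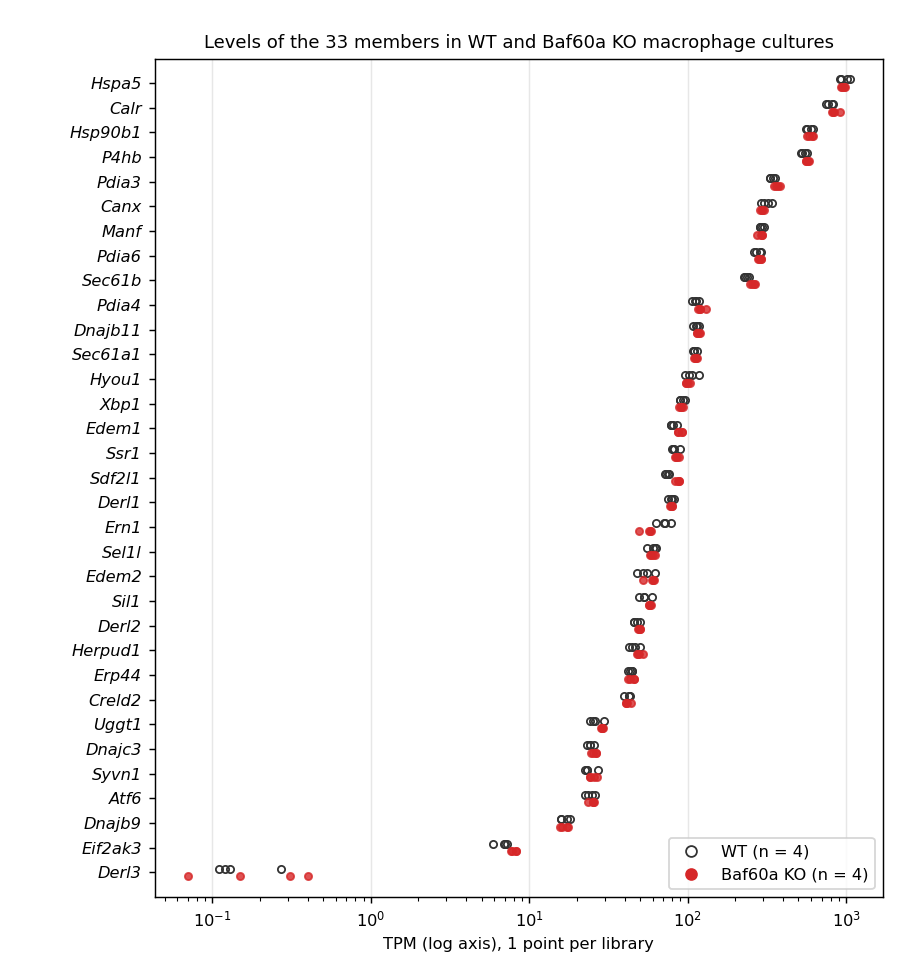
TPM of each of the 33 members on a log axis, 1 point per library, open for WT and red for Baf60a KO (4 libraries each), ordered by mean level. Levels span from under 1 TPM for Derl3 to about 979 TPM on average for Hspa5 in WT, and for most members the points of the 2 groups overlap.

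Smarcd1, the targeted gene, was lower in all 4 KO libraries (from 9.91 to 10.9 TPM) than in any WT library (from 14.01 to 16.3 TPM), with a log2 fold change of -0.47 (limma adjusted p = 0.00756). The KO mean was 0.705 times the WT mean, so its transcript was reduced and not absent. Each library summed to 1000000 TPM within rounding, so read depth is unknown. WT replicates 3 and 4 stood apart, with 12.4% and 12.6% of TPM on processed pseudogenes, against 7.05% to 8.72% in the other 6 libraries. The 10 macrophage markers were all above 1 TPM in at least 4 libraries and summed to between 2721 and 3230 TPM in WT and between 3236 and 3434 TPM in KO. Of 8 stromal markers, 7 passed the same level, and their sum, mostly of the collagens Col1a1 and Col1a2, was 3234 to 3628 TPM in WT and 3948 to 4241 TPM in KO. Endothelial markers summed to 22.2 to 28.9 TPM in WT and 32.6 to 41.7 TPM in KO. Of the stromal markers 4 rose (Col1a1, Col3a1, Pdgfrb and Thy1), of the endothelial markers 2 (Pecam1 and Emcn), and of the macrophage markers 2 (Cd68 and Itgam), and none of these 3 lists held a called fall. Not all of their members averaged higher in KO: mean TPM was 5.91 in WT and 3.96 in KO for stromal Dcn, 0.348 and 0.220 for stromal Lum, and 79.3 and 71.8 for macrophage Mrc1. Most of the difference in the macrophage sum was in Cd68, at 1472 TPM on average in WT and 1791 TPM in KO. B and plasma cell markers summed to 121 to 143 TPM in WT and 130 to 144 TPM in KO, most of it from Sdc1 and Fkbp11. Of these 13 markers, 5 were above 1 TPM in at least 4 libraries. Mean TPM was 5.18 in WT and 3.90 in KO for Ighm, 4.19 and 2.01 for Igkc, and 2.43 and 2.16 for Cd79b. Cd79a, Ms4a1 and Mzb1 averaged under 1 TPM in both groups. Neutrophil markers summed to 202 to 296 TPM in WT and 152 to 244 TPM in KO, most of it from S100a8 and S100a9. Of these 10 markers, 6 were above 1 TPM in at least 4 libraries, with Ngp averaging 28.8 TPM in WT and 20.5 TPM in KO. Ly6g, Elane, Mpo and Retnlg averaged under 1 TPM in both groups. Erythroid markers summed to 6.81 to 50.7 TPM in WT and 4.91 to 28.4 TPM in KO. Dendritic, mast and T and NK cell markers each summed to under 5 TPM in every library, with Gzma at 0.

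Baf60a KO was compared with WT to ask whether the ER folding genes differ in cultures labelled as lacking Baf60a. Of 32 members tested, 1 rose (Sdf2l1), 1 fell (Ern1) and 30 did not pass (limma, Benjamini-Hochberg adjusted p under 0.05 over all genes tested). That is 6.25% of the members, and 5.61% of all 13933 genes tested were called, 4.40% as higher and 1.21% as lower in KO. The groups did not overlap for 5 members (15.6%), Sdf2l1, Eif2ak3, Edem1 and Sec61b as higher and Ern1 as lower in KO, against 15.8% of all genes, 11.9% as higher and 3.96% as lower. Both shares are near the background. The median log2 fold change was 0.04 over the members and 0.03 over all genes tested, and 23 of the 32 members (71.9%) and 57.5% of all genes were above 0. It was 0.01 over the members and -0.01 over all genes under median-of-ratios scaling, which also changed the calls over all genes from 613 higher and 169 lower to 530 and 408, while the members kept 1 of each. Over these bulk cultures, fewer cells of a type and less RNA per cell cannot be told apart.

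**Figure D3:**
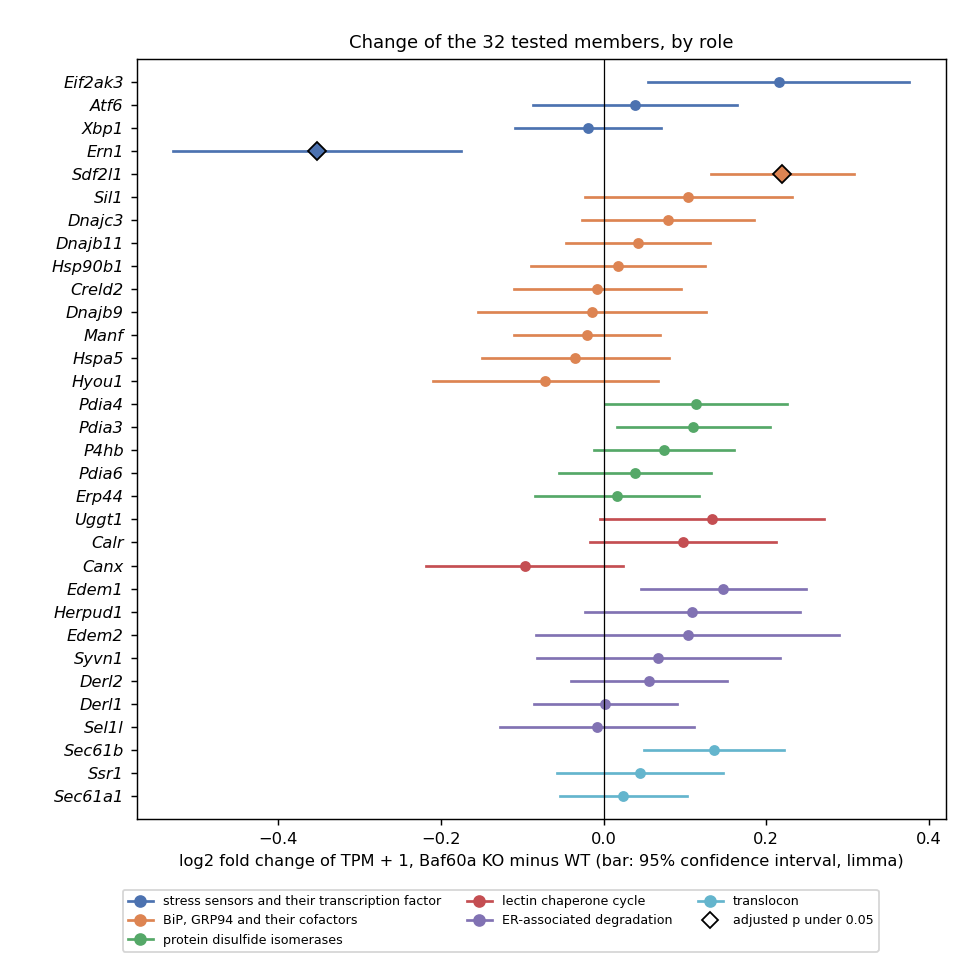
Log2 fold change of TPM + 1, Baf60a KO minus WT, for the 32 tested members, coloured by role, with 95% confidence intervals from limma (4 libraries per group); diamonds mark adjusted p under 0.05. Ern1 at -0.35 and Sdf2l1 at 0.22 are the members past the threshold, and most intervals span 0.

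Among the stress sensors, Ern1 (chromosome 11, 106394650 to 106487852, build mm10) fell. In order of replicate, the WT libraries held 78.5, 72.2, 63.2 and 71.3 TPM and the KO libraries 58.0, 56.7, 49.2 and 58.6 TPM. Every KO library was below every WT library, and KO replicate 3 was the lowest of the 8. The means were 71.3 ± 6.28 (SD, n = 4) and 55.6 ± 4.36 TPM, a log2 fold change of -0.35 (SE 0.078, limma adjusted p = 0.0381). The call held without WT replicate 3 (adjusted p = 0.0261) and ended when any other single library was left out (0.0598 to 0.0899). Over all alternatives its adjusted p ran from 0.0190 to 0.0899. It held without both WT replicates 3 and 4, at a log2 fold change of -0.43 (adjusted p = 0.0439).

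Eif2ak3, the gene of PERK, was at 7.23, 7.01, 5.89 and 6.93 TPM in WT and 8.25, 7.75, 8.27 and 7.72 TPM in KO. The groups did not overlap, but the log2 fold change of 0.22 (95% confidence interval 0.06 to 0.38) did not pass (limma adjusted p = 0.114). Atf6, the third sensor, was at 24.2 ± 1.55 and 24.9 ± 0.840 TPM. Xbp1, the target of IRE1 splicing, was at 89.1, 96.2, 89.5 and 93.4 TPM in WT and 90.5, 88.5, 93.4 and 90.7 TPM in KO. Its groups overlapped, with an interval of the log2 fold change from -0.11 to 0.07. A gene-level TPM does not separate spliced from unspliced Xbp1, so the activity of IRE1 is not measured here.

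BiP and its partners fold newly made chains in the ER lumen. Hspa5, the gene of BiP and the most abundant member, was at 917, 1051, 929 and 1018 TPM in WT and 932, 977, 945 and 963 TPM in KO. The KO libraries lay inside the WT range, and the interval of the log2 fold change ran from -0.15 to 0.08. Hsp90b1, the HSP90 family chaperone GRP94, was at 585 ± 28.3 and 592 ± 23.7 TPM. Hyou1 and Sil1, nucleotide exchange factors of BiP, had log2 fold changes of -0.07 and 0.10 with adjusted p of 0.551 and 0.314 by limma.

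Sdf2l1 (chromosome 16, 17130138 to 17132383), an ER protein that works with the J-domain cofactors of BiP, rose. Its TPM was 76.5, 74.9, 71.6 and 73.4 in WT and 86.8, 83.01, 88.3 and 87.7 in KO, with no overlap. The means were 74.1 ± 2.10 and 86.5 ± 2.38 TPM (SD, n = 4), a log2 fold change of 0.22 (SE 0.039, limma adjusted p = 0.0210), or 16.7% on the TPM scale. The call ended without WT replicate 4 or KO replicate 1, 3 or 4, with adjusted p from 0.0617 to 0.0756, and without both WT replicates 3 and 4 (log2 fold change 0.19, adjusted p = 0.0620). Over all alternatives its adjusted p ran from 0.0153 to 0.0765. The macrophage, stromal and endothelial marker sums given above were also higher in every KO library than in any WT library. Their part in the rise of Sdf2l1 and in the fall of Ern1 was not tested.

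The J-domain proteins that hand substrates to BiP did not pass. Dnajb9 (ERdj4) averaged 16.8 ± 1.11 TPM over the WT and 16.7 ± 0.880 TPM over the KO libraries, and Dnajb11 (ERdj3), with which Sdf2l1 forms a complex, at 114 ± 4.36 and 117 ± 2.01 TPM. Dnajc3 (P58IPK) was at 24.2 ± 0.997 and 25.6 ± 0.772 TPM. The secreted stress proteins Manf and Creld2 had log2 fold changes of -0.02 and -0.01. Of the 10 genes in this role, 5 were above 0 and 5 below, and under median-of-ratios scaling 4 and 6.

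The 5 disulfide isomerases form and shuffle disulfide bonds in folding proteins, and none passed, and all 5 were above 0 on TPM as deposited, as were 57.5% of all genes tested. Pdia3, the isomerase that works with calreticulin and calnexin, was at 328, 353, 330 and 344 TPM in WT and 362, 370, 383 and 350 TPM in KO. KO replicate 4 lay inside the WT range, and the log2 fold change was 0.11 (95% confidence interval 0.02 to 0.20, limma adjusted p = 0.160). Pdia4, at 112 ± 5.04 and 121 ± 6.03 TPM, had the same log2 fold change of 0.11 (adjusted p = 0.219 by limma). P4hb, the gene of PDI itself, was at 540 ± 20.9 and 568 ± 10.3 TPM, and Pdia6 at 278 ± 12.8 and 285 ± 5.44 TPM. Erp44, which retains unassembled clients, was at 43.7 ± 1.15 and 44.2 ± 1.88 TPM. Under median-of-ratios scaling, protein-coding rescaling and quantile normalization 4 of the 5 were above 0.

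The lectin chaperones hold glycoproteins during folding, and 0 of 3 passed, in differing directions. Calr (calreticulin, soluble) was at 816, 826, 769 and 747 TPM in WT and 813, 835, 910 and 822 TPM in KO, a log2 fold change of 0.10. Canx (calnexin, its membrane-bound relative) was at 302, 323, 291 and 342 TPM in WT and 293, 302, 294 and 284 TPM in KO, a log2 fold change of -0.10. Both pairs of groups overlapped, with limma adjusted p of 0.293 and 0.325. Uggt1, the glucosyltransferase that sends misfolded glycoproteins back to these chaperones, was at 26.2 ± 2.26 and 28.8 ± 0.254 TPM (limma adjusted p = 0.237).

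Of 7 tested genes of ER-associated degradation, in which misfolded proteins are drawn into the cytosol for the proteasome, 0 passed. Edem1, a mannose-trimming lectin that marks glycoproteins for degradation, was at 85.6, 80.6, 78.0 and 78.7 TPM in WT and 91.9, 86.4, 87.1 and 92.6 TPM in KO. The groups did not overlap, by a gap of under 1 TPM, and the log2 fold change was 0.15 (95% confidence interval 0.05 to 0.25, limma adjusted p = 0.0941). Edem2 overlapped, at 54.4 ± 5.88 and 58.4 ± 3.99 TPM. Syvn1 (HRD1), the ubiquitin ligase, and its partner Sel1l had log2 fold changes of 0.07 and -0.01. The stress-induced scaffold Herpud1 was at 45.9 ± 3.24 and 49.5 ± 2.08 TPM. The Derlins Derl1 and Derl2 were at 78.9 ± 2.87 and 47.5 ± 2.14 TPM in WT and 79.0 ± 1.08 and 49.4 ± 0.401 TPM in KO. Derl1 shares 95.4% identity over 652 bases with the pseudogene Gm35638, itself at 9.34 ± 3.37 and 6.83 ± 1.02 TPM, so its level is less certain. With this copy added, Derl1 was at 88.2 ± 3.82 TPM in WT and 85.8 ± 1.12 TPM in KO, and the groups overlapped.

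The translocon genes Sec61a1 and Sec61b encode the pore through which chains enter the ER, and Ssr1 a subunit of the associated TRAP complex. Sec61b was at 226, 244, 236 and 230 TPM in WT and 260, 249, 264 and 256 TPM in KO. The groups did not overlap, and the log2 fold change of 0.14 (95% confidence interval 0.05 to 0.22) did not pass (limma adjusted p = 0.0738). Reads of this gene could be split with near-identical copies. Gm10320, Gm5870 and Gm33666 match its transcript at 98.3%, 95.7% and 96.8% identity, over 474, 282 and 281 bases. These copies summed to 72.4 ± 32.8 TPM in WT, with the highest sum of 114 TPM, and to 58.8 ± 4.10 TPM in KO. With the copies added, the gene was at 265, 301, 317 and 344 TPM in WT and 322, 306, 326 and 310 TPM in KO, and the groups overlapped. Sec61a1 was at 110 ± 2.77 and 112 ± 1.75 TPM, and Ssr1 at 83.04 ± 4.29 and 85.6 ± 2.005 TPM.

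For 29 of the 30 members that did not pass, the 95% confidence interval of the log2 fold change lay within 0.3 of 0 on both sides, the exception being Eif2ak3. A change within those intervals was not resolved with 4 libraries per group, and the missed threshold does not show equal levels. Of the 9 members with an ERSE match in the promoter, 8 were tested and 0 passed, and 5.61% of all genes tested were called. The 8 had log2 fold changes from -0.10 (Canx) to 0.10 (Calr) and a median of 0.03. The 2 members with ERSE-II, Dnajb11 and Herpud1, also did not pass, at 0.04 and 0.11. Sdf2l1 and Ern1, the called members, were among 16 members whose promoter held no exact match to either form in this window. That says nothing of more distant or inexact elements, and 1 rise and 1 fall are too few to link calls with elements.

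The sequence upstream of both called members is shown, so that it can be read against the elements above. It runs 5′ to 3′ in the direction of the gene, ends at the first base before the annotated gene, and is all in lower case because it holds none of the full motifs.
Sdf2l1, chr16:17132384-17132633, minus strand: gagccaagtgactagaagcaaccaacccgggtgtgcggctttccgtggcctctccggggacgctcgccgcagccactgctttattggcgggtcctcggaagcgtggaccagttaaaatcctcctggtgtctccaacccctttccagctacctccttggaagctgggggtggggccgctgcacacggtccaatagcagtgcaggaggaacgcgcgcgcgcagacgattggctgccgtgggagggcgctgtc
Ern1, chr11:106487853-106488046, minus strand: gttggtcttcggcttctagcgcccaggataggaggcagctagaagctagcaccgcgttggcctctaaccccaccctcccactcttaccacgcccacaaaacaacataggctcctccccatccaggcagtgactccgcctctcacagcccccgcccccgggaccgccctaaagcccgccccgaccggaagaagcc

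**Figure D4:**
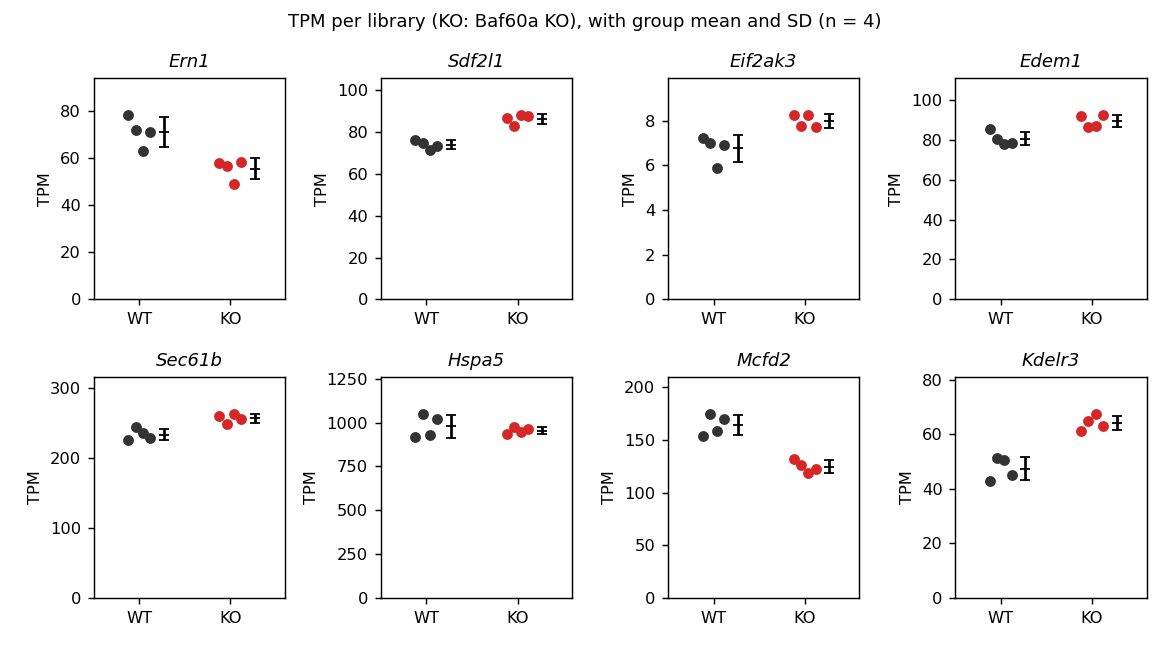
TPM in each library for the 5 members whose groups did not overlap, for Hspa5, and for the called export genes Mcfd2 and Kdelr3. Group mean and SD are shown (4 libraries each, axes start at 0). The panels do not stand for the members as a whole, most of which overlapped. Ern1 and Mcfd2 are lower in every KO library than in any WT library, Sdf2l1 and Kdelr3 higher, and Hspa5 overlaps.

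Across libraries, of the 32 tested members, WT replicate 3 lay above the mean of all 8 libraries for 2 and WT replicate 4 for 7. WT replicate 1 did so for 14, WT replicate 2 for 24, and each KO library for 17 to 26. The median deviation of the members was -0.08 in WT replicate 3 and that of all genes tested was -0.07, on the log2(TPM + 1) scale. These 2 WT libraries are those with the high share of pseudogene TPM, and the part of that share in the members' levels was not tested. The coefficient of variation of a member was larger among WT than among KO libraries for 27 of the 32 tested, with medians of 4.67% and 3.12%. It was also larger among WT libraries for 70.6% of all genes tested, with medians of 9.36% and 6.74%, so the wider WT spread was not particular to the members. Without both WT replicates 3 and 4 the median log2 fold change was 0.01 over the members and 0.01 over all genes tested.

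**Figure D5:**
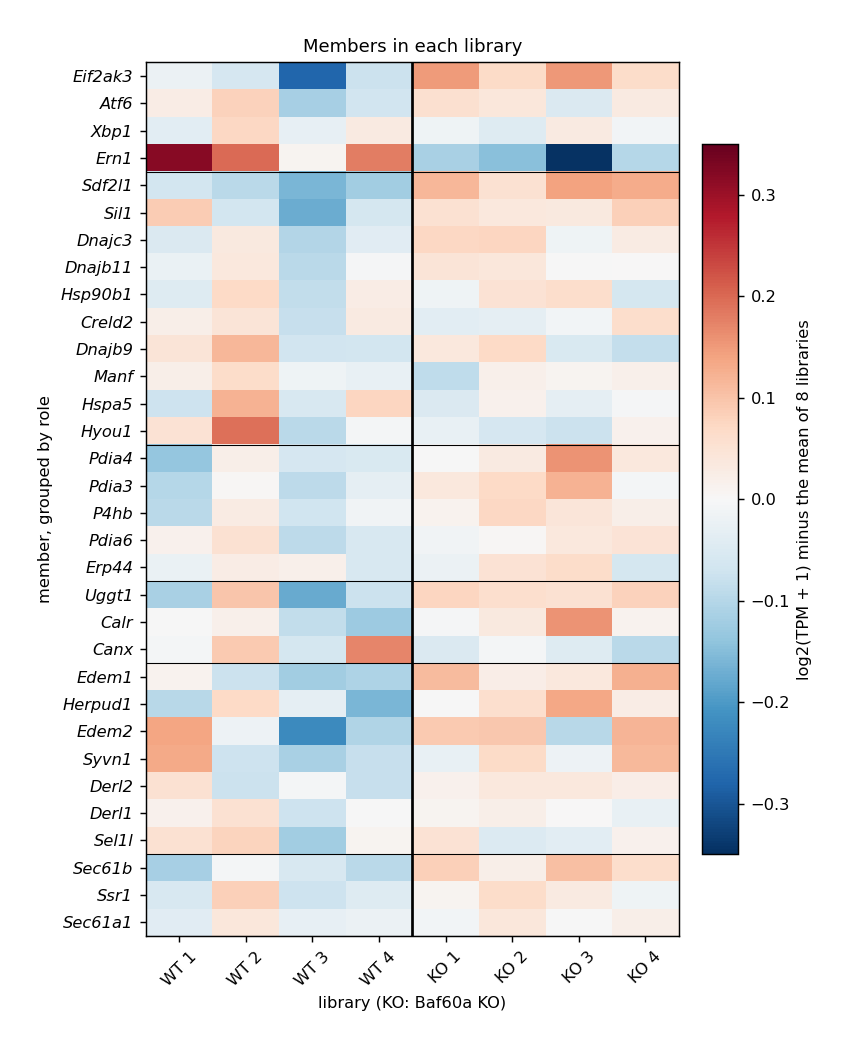
Deviation of log2(TPM + 1) from the mean of the 8 libraries for each of the 32 tested members (rows, grouped by role), in WT 1 to 4 and Baf60a KO 1 to 4 (columns); red is above and blue below the mean. WT 3 is below the mean for 30 of 32 members. The Ern1 and Sdf2l1 rows change sign between the groups, as do those of Eif2ak3 and Sec61b, which were not called. Ern1 in WT 3 is only 0.01 above the mean.

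Other genes of the same pathways were read from a list chosen by function. Of 111 tested, 9 rose, 1 fell and 101 did not pass, a share of 9.01% against 5.61% of all genes, and their median log2 fold change was 0.07. The groups did not overlap for 28 as higher and 5 as lower in KO, 29.7% against 15.8% of all genes. Without both WT replicates 3 and 4, 5 rose and 2 fell, and the median was 0.03. Under median-of-ratios scaling 7 rose and 4 fell.

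Genes of ER export and retrieval held 4 of the 10 calls among 22 tested (18.2%, against 5.61% of all genes). Kdelr3, a receptor that returns escaped ER chaperones from the Golgi, rose, from 42.7, 51.2, 50.6 and 44.9 TPM in WT to 61.1, 64.7, 67.6 and 63.1 TPM in KO (log2 fold change 0.43, SE 0.066, limma adjusted p = 0.0126). The groups did not overlap, and its paralogs Kdelr1 and Kdelr2, named after their values were seen, did not overlap either, at 108 and 99.4 TPM on average in WT and 122 and 109 TPM in KO, but did not pass (limma adjusted p = 0.131 and 0.107). The COPII coat genes Sec23a and Sec24d, which form vesicles leaving the ER, rose with log2 fold changes of 0.27 and 0.20. Mcfd2, a cargo receptor subunit that carries coagulation factors V and VIII, fell, from 154, 175, 158 and 170 TPM in WT to 132, 126, 118 and 122 TPM in KO (log2 fold change -0.39, SE 0.053, limma adjusted p = 0.00838). Kdelr3 and Mcfd2 were called with any 1 library left out and under every scaling tried. Sec24d lost its call in 7 of the 8 fits that left out 1 library, reaching a limma adjusted p of 0.127 when KO replicate 3 was dropped.

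Of 27 genes for folding and disulfide formation, 2 rose and 0 fell (7.41%, against 5.61% of all genes). Erp29, an abundant ER chaperone, went from 200 ± 8.31 to 232 ± 3.78 TPM (log2 fold change 0.22, limma adjusted p = 0.0213). Sdf2, the paralog of Sdf2l1, was at 45.3, 40.4, 42.9 and 37.1 TPM in WT and 50.6, 51.7, 50.1 and 49.1 TPM in KO (log2 fold change 0.28, limma adjusted p = 0.0367). The paralogs thus both rose, with no overlap of the groups in either. Sdf2 kept its call in 2 of the 8 fits that left out 1 library, and Erp29 in 4.

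Of 28 translocation and glycosylation genes, 2 rose and 0 fell (7.14%, against 5.61% of all genes). These were Tram1, a translocon partner (from 50.7 ± 1.51 to 59.2 ± 2.50 TPM, limma adjusted p = 0.0307), and Ssr4, another subunit of the TRAP complex (from 232 ± 13.5 to 267 ± 6.43 TPM, limma adjusted p = 0.0427). Of 23 further degradation genes 1 rose (4.35%), the membrane ubiquitin ligase Rnf5 (from 35.2 ± 1.80 to 42.7 ± 2.09 TPM, limma adjusted p = 0.0278). The segregase Vcp was at 216 ± 7.45 and 223 ± 0.342 TPM and Aup1 at 190 ± 10.5 and 180 ± 5.17 TPM, and neither passed. Tram1 and Ssr4 each kept the call in 1 of the 8 fits that left out 1 library, and Rnf5 in 3.

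Of 11 genes of the signalling arm beyond the members, 1 rose and 0 fell (9.09%, against 5.61% of all genes). The groups did not overlap for 1 gene as higher and 3 as lower in KO (36.4%, against 15.8% of all genes). The median log2 fold change of the 11 was -0.02. Creb3l1 (OASIS), an ATF6-like membrane-bound factor known for collagen secretion, was at 34.3, 36.6, 32.6 and 32.3 TPM in WT and 41.4, 43.4, 39.5 and 40.1 TPM in KO (log2 fold change 0.27, limma adjusted p = 0.0288). The summed stromal markers, with Col1a1 at 1534 TPM on average in WT and 1873 TPM in KO, moved the same way, as did the macrophage and endothelial sums. The part of these sums in the rises of Creb3l1, Kdelr3, Sec23a and Sec24d was not tested. Creb3l1 was not called without both WT replicates 3 and 4 (adjusted p = 0.0840 by limma, the highest of its alternatives, the lowest being 0.0212) and kept the call in 2 of the 8 fits that left out 1 library. Ddit3 (CHOP), a target of the PERK arm, was at 511, 512, 417 and 440 TPM in WT and 364, 404, 338 and 386 TPM in KO. Its groups did not overlap, and the log2 fold change of -0.33 missed the threshold (limma adjusted p = 0.0544), which it passed in 7 of the 20 alternatives. These were the 3 other scalings, the stricter filter, robust variance, and the fits without WT replicate 3 and without both WT replicates 3 and 4, and its adjusted p over all alternatives ran from 0.0235 to 0.139. Atf4, the factor above it, overlapped at 327 ± 15.9 and 304 ± 8.45 TPM (limma adjusted p = 0.208), and was called as lower under median-of-ratios scaling alone of the alternatives (adjusted p = 0.0362, and up to 0.398 in the others).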

How the data were processed

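The submitters' processing notes list bcl2fastq, Salmon 1.2.0 and mm10; annotation, options and the summing of transcripts to genes are not stated in the labels. The table deposited by the authors gives gene-level TPM to 2 decimals, scaled to 1000000 in each library. Read depth cannot be had from TPM, so counting error is not given. GENCODE M21, on the assembly of mm10, gave symbols for 55240 of 55421 identifiers. A gene was tested if its TPM exceeded 1 in 4 or more libraries (13933 genes). Values were tested as log2(TPM + 1), which understates changes of low genes, with limma 3.58.1 in R 4.3.3, a mean-variance trend and genotype as the single term. P-values were adjusted by Benjamini-Hochberg over all tested genes and called under 0.05. The main fit was tried on simulated data with independent noise of equal spread in both groups. That setting does not cover the wider WT spread or the 2 WT libraries that stood apart. Transcript copies were sought with BLAST 2.17.0 at 95% identity over at least 200 bases. Alternatives covered pseudocount, filter, variance model, scaling, replicate number, library weights and libraries left out. Tests on read counts were not run, since the table holds none. Members, lists and alternatives were chosen with earlier results of these data known. Named genes were all members, Smarcd1 and up to 4 called genes per pathway list, ranked by adjusted p, with the 2 most abundant uncalled genes added for a list holding under 2 calls.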

Additional observations from a re-analysis of the deposited data

Results flagged for a closer look

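A library of a group was singled out where its gap to the nearest of the others exceeded Dixon's 95% critical share of the range of the group's 4 values, which happens by chance in about 1 of 20 groups; 68 groups were looked at (33 members and Smarcd1, in 2 groups each). There were 5 such values. Manf was at 273 TPM in KO replicate 1 and between 292 and 294 TPM in the other KO libraries. Edem2 was at 52.4 TPM in KO replicate 3, below the others at 59.9 to 61.1 TPM. Syvn1 was at 26.98 TPM in WT replicate 1, above the others at 22.6 to 23.3 TPM. Derl3 was at 0.27 TPM in WT replicate 4, against 0.11 to 0.13 TPM, a level too low to be tested. Ssr1 was at 89.4 TPM in WT replicate 2, above the others at 80.1 to 81.7 TPM. None of these 5 genes was called.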

How the results depend on the processing

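Smarcd1 was called under all 20 alternatives. In each, the median of the members moved by less than 0.0615, the mean within-group SD of single members in log2. That bound exceeds the main median of 0.0435, so it does not show that the median was stable. Under median-of-ratios scaling the median was 0.00711. The numbers of members called as higher and lower (1 and 1) became 1 and 0 with no filter on low values and without the mean-variance trend, and 0 and 1 without both WT replicates 3 and 4. With 1 library left out each ranged from 0 to 1. Over all genes, calls (613 higher, 169 lower) became 292 and 72 with no filter, 201 higher without both WT replicates 3 and 4, and 408, 321 and 254 lower under median-of-ratios scaling, protein-coding rescaling and quantile normalization. With 1 library left out they ranged from 120 to 532 higher and from 36 to 235 lower. Other pathway genes (9 higher, 1 lower) became 5 and 2 without both WT replicates 3 and 4. As lower they numbered 4 under median-of-ratios scaling and 2 with the stricter filter, robust variance, protein-coding rescaling and quantile normalization; with 1 library left out they ranged from 2 to 8 higher and from 1 to 2 lower. The cause of these differences was not tested.

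Libraries with the same replicate number had correlations of deviations from group means of -0.11, 0.01, 0.01 and -0.02. Those with differing numbers ran from -0.13 to 0.11. The labels do not say whether the numbers pair the libraries, and these values do not settle it. With the replicate block 146 genes were called higher and 63 lower, 0 members higher and 1 lower, and 1 other pathway gene each way; Sdf2l1 had adjusted p = 0.0765 and Ern1 0.0375 by limma. Depth is unknown for every library, so counting error cannot be set beside these values.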
